A study of Hippophae rhamnoides with 3 samples.

Results

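Gene expression in frozen leaves was compared with that in chilled leaves of seabuckthorn (*Hippophae rhamnoides*), a thorny shrub of cold highlands. The comparison covers every gene and every sequence tag that the authors listed as different between a freeze stress library (FS, -10 °C for 6 hr) and a cold stress library (CS, 4 °C for 6 hr). These are 3998 genes of the 7713 that are listed in at least 1 comparison of the series, and 16450 of 30829 tags. Both libraries came from leaves of plantlets 30 days old, raised from seed at 28 °C, and a control library (CON) came from leaves of plantlets of the same age left at 28 °C. Nothing but temperature distinguishes the groups in their labels. Each condition was measured in 1 library, and whether it pooled several plantlets is not given in the sources used here. No difference below therefore has a replicate check, and no test of the conditions was made.

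DeepSAGE counts transcripts by a short tag. The enzyme NlaIII cuts cDNA at CATG, and a tag of 21 bases is made of that site and the next 17. The CS library held 12010122 clean tags and the FS library 11908614, so that 1 tag was worth 0.0833 TPM in CS and 0.0840 in FS, where TPM is the count scaled to 1000000 clean tags. In place of a count of 0 a limit of 3 tags was used, 0.250 TPM in CS and 0.252 in FS. Every log2 value below is a difference, FS over CS, between TPM levels. Its interval is the exact 95% interval of the 2 counts (Clopper-Pearson), and like the limit of 3 tags it covers nothing but counting error, since copies made by PCR were not told apart by molecular identifiers. The authors chose the listed genes for a difference in these same 2 counts, so that an interval away from 0 adds no support. The largest ratios were picked from the same counts and may be overstated. Gene names are those of the best hit in another species. Leaf markers were abundant in both libraries: the LHCII type I chlorophyll a-b binding gene Unigene113799_All held 7549 tags in CS and 19779 in FS, and the RuBisCO small subunit gene Unigene27359_All held 1353 and 6206. The most abundant listed tag of FS, with 92808 copies, matched no gene and had 2055 copies in CS, and whether it came from leaf RNA was not tested. It and the tags that resemble it made up 0.870% of the FS library and 0.0195% of the CS library, and leaving them out of the totals moved every log2 value by 0.01.

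Chilling and freezing are different stresses for a leaf. Chilling slows enzymes and stiffens membranes while water stays liquid, and plants answer it in part through transcription factors of the AP2/ERF family, which include the CBF/DREB regulators of cold acclimation, and through protective proteins and sugars. In freezing, ice usually forms first between the cells and draws water out of them, so that the cell loses water, its membranes are deformed and its wall is put under strain. Heat shock proteins are chaperones that hold or refold damaged proteins, in cold as well as in heat.

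The tags below carry the counts of the genes on which the comparison turns. For each gene the most abundant listed tag in the sense direction is printed 5′ to 3′, with the CATG cutting site in capitals. The first 8 were lower in FS and the other 8 higher.
Unigene76779_All, heat-shock protein: CATGaataagatgtaagattg
Unigene27932_All, low molecular weight heat-shock protein: CATGtttcggtactgcttaga
Unigene19580_All, S-like ribonuclease: CATGgcaaagatatcaggaat
Unigene43390_All, class I chitinase: CATGtaatatgcaaaaattgt
Unigene89056_All, ACC synthase: CATGgatgttatagtcaaagg
Unigene45099_All, galactinol synthase: CATGtgaaaaggcatttagtt
Unigene154_All, AP2/ERF domain factor: CATGgagttttgttatgttct
Unigene113891_All, plastocyanin: CATGaaatgctatagtgcttt
Unigene75620_All, flavonol synthase/flavanone 3-hydroxylase: CATGttgtgcattttcagtat
Unigene27862_All, chalcone synthase: CATGtcaagtgcttgtgttct
Unigene75030_All, polygalacturonase: CATGatttcccaaccctgtcc
Unigene35302_All, alpha-expansin: CATGtcaaggaactgggggca
Unigene32470_All, rhamnosyltransferase: CATGaaaagtacatagatgaa
Unigene54650_All, bZIP factor: CATGaaactatcaacactgtt
Unigene27359_All, RuBisCO small subunit: CATGcatttccaattaatttt
Unigene114867_All, carbonic anhydrase: CATGtctattccagatgatgg

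In most of these genes the printed tag held nearly the whole count. For Unigene76779_All it held 99.4% of the gene's tags over both libraries, with 6548 copies in CS and 370 in FS, and for Unigene114867_All it held 99.0%, with 1177 and 11410 copies. The lowest shares were those of the chitinase Unigene43390_All, with 15.8% (112 copies in CS and 15 in FS), the RuBisCO gene Unigene27359_All with 64.0% and the bZIP gene Unigene54650_All with 68.5%. In all 16 genes the printed tag lay on the same side as its gene.

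More listed genes were higher in FS than lower, and the genes lower in FS were the more abundant in their higher library. Of the 3998 listed genes, 2210 were higher in FS, which is 55.3%, and 1788 were lower. The median log2 value was 1.77 among the genes higher in FS and -1.54 among those lower. The genes higher in FS had a median of 29 tags in CS and 93 in FS, and those lower had a median of 158 tags in CS and 56 in FS. Among the 1014 genes with at least 300 tags in their higher library, 44.1% were higher in FS, and among the 377 genes with under 30 tags the share was 67.9%. In bulk leaf tissue, fewer cells of a type and less RNA per cell cannot be told apart, and this holds for every value below.

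Differences of at least 4-fold were found for 876 genes higher in FS, 21.9% of those listed, and for 485 lower in FS, 12.1%. This split depends on the scaling. TMM factors computed over the listed genes shifted every log2 value by -0.13 and gave 740 higher and 577 lower. DESeq2 size factors shifted them by -1.08 and gave 180 and 1788. The latter take the middle of the list as no change, and the list holds no gene with a log2 value under 0.999 in size. Just above that size, 381 genes had a log2 value under 1.1 in size. The share of genes higher in FS was 55.3% with TMM and 51.3% with the size factors, under which 158 genes changed side, each with a value smaller than the shift. In CS 177 listed genes had no tag and in FS 70.

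**Figure D1:**
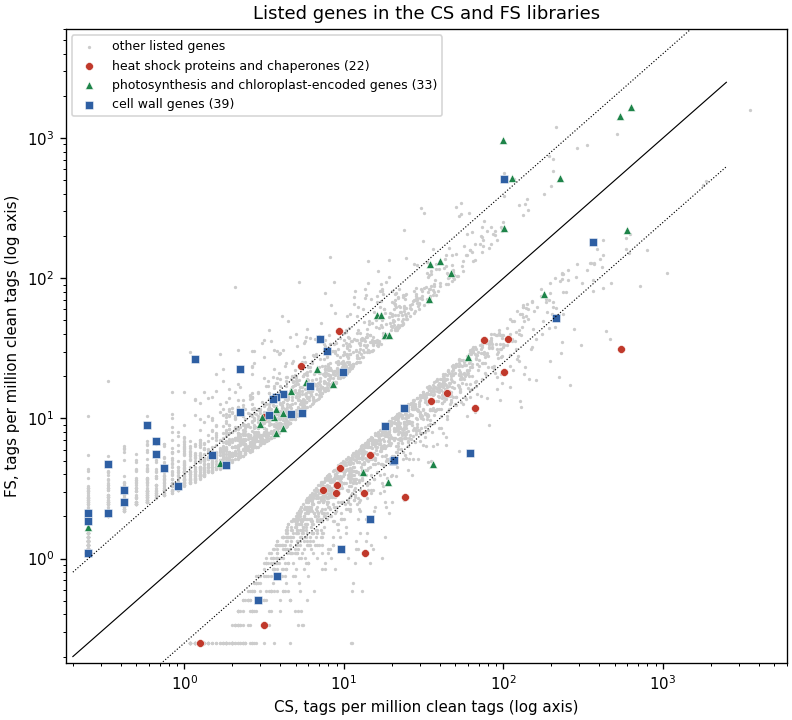
Each point is a listed gene, with its TPM in CS on the x axis and in FS on the y axis, both on log axes, and a count of 0 set to 3 tags. The solid line marks equal levels and the dotted lines a 4-fold difference. Most heat shock proteins and chaperones lie below the solid line (17 of 22), and most photosynthesis and chloroplast-encoded genes (27 of 33) and cell wall genes (28 of 39) lie above it. Of all listed genes, 55.3% lie above it.

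The largest falls by ratio, among genes that kept 10 or more tags in both libraries and have a hit that names a protein, joined a chaperone, a nuclease, a chitinase, a lipase and a regulator. The heat-shock protein gene Unigene76779_All was 17.7-fold lower in FS (370 tags) than in CS (6591 tags). The S-like ribonuclease Unigene19580_All, of a family of secreted RNA-degrading enzymes known for its response to phosphate starvation and wounding, had 2670 tags in CS and 234 in FS (log2 -3.50, interval -3.70 to -3.31). In CON the first held 1257 tags, between CS and FS, and the second 266, near FS. The class I chitinase Unigene43390_All had 738 tags in CS and 68 in FS (log2 -3.43, interval -3.81 to -3.07), and the triacylglycerol lipase Unigene35238_All, an enzyme that frees fatty acids from storage fat, had 230 and 25. The myb-like transcription factor Unigene3063_All had 143 tags in CS and 16 in FS, against 46 in CON.

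The largest rises by ratio were led by flavonoid and wall enzymes. The flavonol synthase/flavanone 3-hydroxylase gene Unigene75620_All, whose enzyme makes flavonols, had 13 tags in CS and 352 in FS, and CON with 400 tags was near FS. The polygalacturonase Unigene75030_All, a pectin-cleaving enzyme, had 14 tags in CS and 316 in FS (log2 4.51, interval 3.74 to 5.40), against 273 in CON. The other 4 were well above CON in FS and below it in CS. The rhamnosyltransferase Unigene32470_All, which adds a sugar to small molecules, went from 183 tags in CON and 63 in CS to 1116 in FS (log2 4.16, interval 3.79 to 4.55). The bZIP factor Unigene54650_All had 50, 26 and 364 tags in the same order (log2 3.82, interval 3.24 to 4.45). The carboxylesterase Unigene10849_All had 84, 41 and 506, and the receptor kinase Unigene11047_All had 33, 10 and 119.

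The largest absolute changes were taken among genes whose hit names a protein. The LHCII gene Unigene113799_All gained 1032 TPM in FS over CS, a germin-like protein gene, Unigene115968_All, 991 TPM (2571 to 14346 tags), and the oxygen-evolving enhancer protein 2 gene Unigene48964_All 889 TPM (6488 to 17016 tags). Next came the chloroplast carbonic anhydrase gene Unigene114867_All with 868 TPM (1189 to 11521 tags) and the RuBisCO small subunit gene Unigene27359_All with 408 TPM. Germin-like proteins are secreted proteins of the wall, some of which act as oxidases or superoxide dismutases. The largest loss of all was in Unigene57134_All, which has no hit (42291 tags in CS, 19032 in FS). Among genes with a named hit the largest losses in TPM, after Unigene76779_All, were those of plastocyanin Unigene113891_All, the copper protein that carries electrons to photosystem I (7179 tags in CS, 2639 in FS), of a monooxygenase Unigene36744_All (5072 and 1757) and of a caffeic acid O-methyltransferase Unigene30358_All of lignin synthesis (4207 and 1529). The S-like ribonuclease followed.

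Some genes had tags in CS alone or in FS alone. The ACC synthase gene Unigene89056_All, whose enzyme makes the precursor of ethylene, had 135 tags in CS and none in FS, at least 44.6-fold lower in FS against the limit of 3 tags, and none in CON. A NAC domain gene, Unigene38866_All, had 22 tags in CS and none in FS or CON, at least 7.27-fold lower, and a nitrate transporter gene, Unigene3217_All, had 21 tags in CS, none in FS and 22 in CON. With no tag in CS, the flavonol synthase gene Unigene76123_All had 38 tags in FS and 56 in CON, the aspartic proteinase gene Unigene43338_All 32 and 13, and the biotin carboxyl carrier protein gene Unigene26859_All 31 and 2. Against the limit of 3 tags in CS, these 3 were at least 12.8-fold, 10.8-fold and 10.4-fold higher in FS. These folds leave out the counting error of the library that had tags. With it, the intervals of the log2 values end nearest 0 at -5.16 for Unigene89056_All, -2.44 for Unigene38866_All, 3.31 for Unigene76123_All, 3.05 for Unigene43338_All and 3.0 for Unigene26859_All.

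Gene groups were read by keywords in the names of the best hits. Of 33 keyword lists, 30 had at least 3 listed members. In 19 of these most members were higher in FS and in 11 most were lower, beside the 55.3% of all listed genes and the 62.2% of the 915 genes whose hit names a protein. The median over all listed genes was 1.12 on the log2 scale. Since no gene in the list had a log2 value near 0, the median of an evenly divided list can fall on either side of 0. With best hits of an E-value of at most 1e-20 alone, the medians of the NAC, MYB, ubiquitin and auxin lists changed sign. The medians of the lipid and transporter lists did so with the DESeq2 size factors and with genes of at least 30 tags in the higher library.

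**Figure D2:**
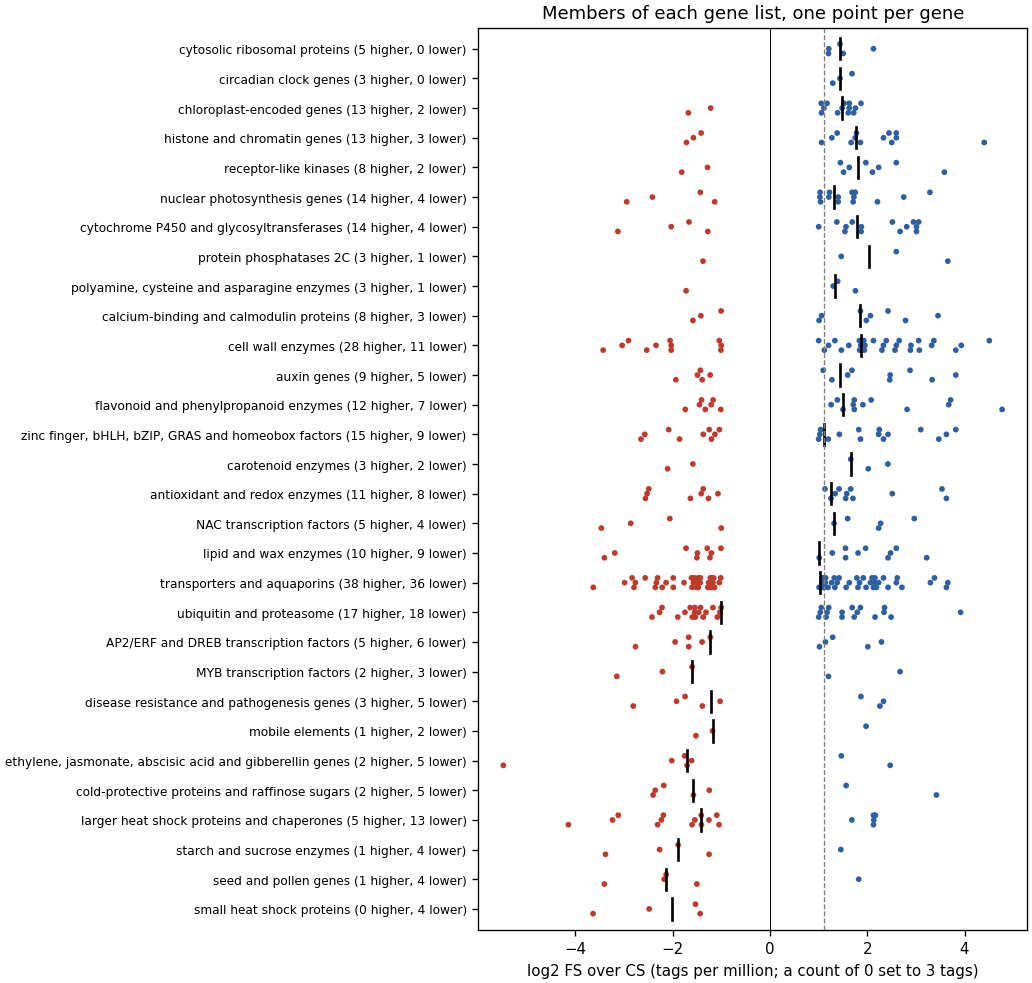
Each point is a listed gene, placed by its log2 value (FS over CS) on the x axis in the row of its keyword list, with blue for higher in FS and red for lower, and each black bar is the median of a list. The dashed line is the median of all listed genes, 1.12. The small heat shock proteins lie wholly on the left, and the cytosolic ribosomal proteins and clock genes wholly on the right.

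Most listed heat shock protein genes were lower in the frozen than in the chilled leaves. All 4 listed small heat shock protein genes were lower in FS (median log2 -2.01), with 2351 tags in sum in CS and 635 in FS. Of all genes whose hit names a protein, 62.2% were higher in FS. The low molecular weight gene Unigene27932_All had 163 tags in CS and 13 in FS (log2 -3.64, interval -4.58 to -2.82). The Hsp20.1 gene Unigene113620_All had 795 and 141, the mitochondrial small heat shock gene Unigene31833_All 1284 and 441, and the remaining gene Unigene108878_All 109 and 40. In CON these held 45, 276, 540 and 14 tags, so that the first 3 were lower in FS than in CON and the last was not. Both listed heat shock factor genes, whose products switch on heat shock genes, were also lower in FS: Unigene48190_All had 121 tags in CS and 41 in FS, and Unigene22057_All had 72 and 30.

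Of the 18 larger heat shock proteins and other chaperones, 13 were lower in FS and 5 higher (median -1.41). The share higher was 27.8%, beside 62.2% of all genes whose hit names a protein. The tags of the 18 summed to 10862 in CS and 2589 in FS, of which 6591 and 370 belonged to Unigene76779_All. Besides that gene, and named after their values were seen, the heat-shock protein gene Unigene49802_All had 289 tags in CS and 33 in FS, the heat shock protein binding gene Unigene43173_All 1212 and 256, and the athanogene-like gene Unigene13328_All, a co-chaperone of HSP70, 161 and 35. The largest rise with at least 10 tags in both libraries was that of a putative chaperon, Unigene34161_All, with 112 tags in CS and 499 in FS (log2 2.17, interval 1.87 to 2.48). Also named after values were seen, a TCP-1 beta subunit gene, Unigene40343_All, part of the complex that folds actin and tubulin, rose as well, from 65 to 283 tags. The same holds for the copper chaperones in this list, which deliver metal and do not fold proteins: Unigene49048_All was lower with 424 and 158 tags, and Unigene33907_All had none in CS and 13 in FS. Among the 12 listed genes named as heat shock proteins or as partners of these, a grouping made after values were seen, 11 were lower in FS. The paper gives a gene it names HSP70 as without tags in cold stress and present in freeze stress. The keyword lists hold no heat shock protein gene with that pattern. The paper also measured HSP70 by qRT-PCR, and describes its expression as mildly raised in cold stress and more so in freeze stress.

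Transcription factors of the AP2/ERF family moved in both directions. Of 11 listed members, 5 were higher in FS and 6 lower (median -1.23), and the sums were 2543 tags in CS and 1900 in FS. With best hits of an E-value of at most 1e-20 alone, 1 of 6 was higher (median -1.67). The largest fall was that of Unigene154_All, with 527 tags in CS and 77 in FS, where CON had 67. Unigene811_All had 837 tags in CS and 355 in FS, Unigene29399_All 404 and 126, and Unigene22589_All 109 and 28. On the other side, Unigene73970_All had 234 tags in CS and 567 in FS, with 24 in CON, and Unigene9689_All had 161 and 352. In 7 of the 8 members with a CON count, CON was below both CS and FS. A CON count was at hand only for genes also listed as different from CON. Over all such genes, CON was below both in 415 of the 1442 higher in FS and in 465 of the 1317 lower.

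The other regulators were mixed as well. Both listed WRKY genes were lower in FS, Unigene18832_All with 200 tags in CS and 86 in FS and Unigene46341_All with 30 and 6. Among 9 NAC genes, 5 were higher and 4 lower. The largest fall with at least 10 tags was from 105 to 25 tags in Unigene10448_All, and the largest such rise from 10 to 48 in Unigene115459_All. Of 5 MYB genes, 2 were higher, with 32 tags in CS and 73 in FS for Unigene5024_All. The 24 zinc finger, bHLH, bZIP, GRAS and homeobox genes had 15 members higher and 9 lower, but 12 and 12 with the DESeq2 size factors, and their summed tags were nearly equal, 4237 in CS and 4238 in FS. Within them the zinc finger gene Unigene12199_All had the largest fall with at least 10 tags, from 64 to 15.

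Most listed cold-protective genes and most listed starch and sucrose enzymes were lower in FS. In the list of 7 cold-protective genes, 2 were higher and 5 lower (median -1.57). Of all genes whose hit names a protein, 62.2% were higher in FS. The galactinol synthase gene Unigene45099_All, whose enzyme starts the synthesis of raffinose sugars, had 393 tags in CS and 76 in FS (log2 -2.36, interval -2.73 to -2.0), against 104 in CON. The LEA protein genes were lower in FS than in CS but remained above CON: the Em gene Unigene982_All had 55, 1716 and 717 tags in CON, CS and FS, and the LEA76 homologue Unigene7845_All had 58, 820 and 179. Late embryogenesis abundant (LEA) proteins, to which Em belongs, protect cells that lose water. The trehalose-6-phosphate synthase genes moved apart, with 16 tags in CS and none in FS for Unigene22229_All and 8 and 85 tags for Unigene21606_All. The other rise, Unigene32195_All, was a sugar transporter of the ERD6 type (63 and 185 tags). Of 5 starch and sucrose enzymes, 4 were lower in FS, among them sucrose phosphate synthase Unigene6705_All (209 and 56 tags, 21 in CON) and beta-amylase Unigene22317_All (68 and 14), which release or build soluble sugar. A plastid alpha-amylase, Unigene20599_All, went from 18 to 49.

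In the list of 7 ethylene, jasmonate, abscisic acid and gibberellin genes, 2 were higher and 5 lower (median -1.70). Of all genes whose hit names a protein, 62.2% were higher in FS. Besides the ACC synthase gene that had no tag in FS, the ACC oxidase gene Unigene30597_All (117 tags in CS, 38 in FS) was lower, as was Unigene195_All (639 and 188), whose hit is named only 1-aminocyclopropane-1-carboxylate. ACC oxidase makes ethylene from ACC. Another ACC oxidase gene, Unigene59832_All, was higher (50 and 137 tags). The ethylene receptor genes were divided, with 69 and 21 tags for Unigene33538_All and 6 and 33 for Unigene11149_All. A gibberellin 2-oxidase gene, Unigene24050_All, whose enzyme inactivates gibberellin, went from 94 to 23 tags.

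Most listed photosynthesis genes of the nucleus were higher in the frozen than in the chilled leaves. Of 18 listed, 14 were higher and 4 lower (median 1.31), and their tags summed to 29933 in CS and 69219 in FS. The share higher was 77.8%, beside 62.2% of all genes whose hit names a protein. With the DESeq2 size factors 11 of the 18 were higher. Carbonic anhydrase, which supplies carbon dioxide in the chloroplast, had the largest rise, 9.77-fold (log2 3.29, interval 3.20 to 3.38), and its tags numbered 3550, 1189 and 11521 in CON, CS and FS. RuBisCO's small subunit (log2 2.21, interval 2.12 to 2.30) had 7492 tags in CON, so that FS with 6206 was near CON and CS with 1353 was low. The LHCII gene showed the same order, with 21499, 7549 and 19779 tags. The largest fall was in the chlorophyll A/B binding gene Unigene96011_All, with 435 tags in CS and 56 in FS, and CON with 49 was near FS. Over the 14 members with a CON count the median levels were 102, 43.5 and 82.3 TPM in CON, CS and FS. The list also holds a nitrite reductase gene, which serves nitrogen assimilation.

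Genes encoded in the chloroplast followed another order. Of 15 listed, 13 were higher in FS and 2 lower (median 1.48), and none reached 4-fold in either direction. The share higher was 86.7%, beside 62.2% of all genes whose hit names a protein. With the DESeq2 size factors 11 of the 15 were higher. Their tags summed to 4811 in CS and 7516 in FS. The largest rise was in the ATP synthase CF1 alpha subunit Unigene16_All, with 415 tags in CS and 1505 in FS (log2 1.87, interval 1.71 to 2.03). All 8 genes of the chloroplast's RNA polymerase, ribosome and intron maturase that are in the list, grouped after values were seen, were higher in FS (1.05 to 1.76 on the log2 scale), though the lower end of this range falls below 0 with those size factors. The pair lower in FS, also named with values known, were photosystem II protein D1, Unigene10610_All (2157 and 919 tags), and the NADH-plastoquinone oxidoreductase subunit 6 gene Unigene24022_All (158 and 49). CON lay below both CS and FS in all 13 members with a CON count, with medians of 1.99, 4.16 and 10.9 TPM in CON, CS and FS. Only genes also listed as different from CON have such a count. Over all of these, CON was below both in 415 of the 1442 higher in FS and in 465 of the 1317 lower. The tags are taken from RNA caught by a poly(A) tail, which few chloroplast transcripts carry, so that these counts are no measure of the whole chloroplast transcript pool.

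In the carotenoid pathway, whose pigments colour the seabuckthorn berry and protect the leaf from excess light, 3 of 5 listed genes were higher in FS. That share is near the 62.2% of all genes whose hit names a protein. Phytoene synthase Unigene22752_All, the entry enzyme, had 31 tags in CS and 165 in FS (log2 2.42, interval 1.86 to 3.03). Phytoene dehydrogenase Unigene7973_All had 41 and 165, and lycopene epsilon cyclase Unigene5692_All 140 and 439. Zeaxanthin epoxidase Unigene2750_All, of the xanthophyll cycle, was lower with 2855 tags in CS and 944 in FS, against 891 in CON. Carotenoid cleavage dioxygenase Unigene5320_All had 13 tags in CS and none in FS.

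Flavonoid and phenylpropanoid genes had 12 members higher and 7 lower among 19 (median 1.5). The share higher is near the 62.2% of all genes whose hit names a protein. The summed tags of these 19 genes were nonetheless lower in FS, 5339 against 6963 in CS. Caffeic acid O-methyltransferase Unigene30358_All alone went from 4207 to 1529 tags. Named after their values were seen, chalcone synthase Unigene27862_All, the entry enzyme of flavonoid synthesis, had 943, 57 and 239 tags in CON, CS and FS (log2 2.08), and the flavonoid 3-hydroxylase gene Unigene32455_All had 1293, 521 and 1463. In the same manner, 3 of 4 flavonol synthase genes were found higher in FS, and Unigene16338_All was lower with 296 and 127 tags. The best hit of Unigene75620_All has an E-value of 2.3e-11, so that its name is less certain than that of Unigene76123_All, at 7.3e-94. Both leucoanthocyanidin reductase hits, of tannin synthesis, were lower in FS. The largest fall with at least 10 tags was that of Unigene45768_All, from 64 to 19 tags.

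Of 39 listed cell wall genes, 28 were higher in FS and 11 lower (median 1.86), with 16 at least 4-fold higher and 8 at least 4-fold lower. The share higher was 71.8%, beside 62.2% of all genes whose hit names a protein. Of all listed genes, 21.9% were at least 4-fold higher and 12.1% at least 4-fold lower. The proline-rich wall protein gene Unigene10303_All, with 1215 tags in CS and 6068 in FS, was the most abundant of the rises. This gene and the smaller groups that follow were chosen after values were seen. All 7 genes with expansin in the name of their hit, a family whose proteins loosen the wall, were higher in FS, with 186 tags in sum in CS and 1006 in FS. This count leaves out Unigene61801_All, a hit to the pollen allergen Ory s 1, which in rice is a beta-expansin: it was lower in FS, with 2093 tags in CS and 473 in FS. Of the 7, the alpha-expansin Unigene35302_All had 7 tags in CS and 106 in FS, and expansin 2, Unigene9851_All, had 85 and 442. All 4 fasciclin-like and arabinogalactan protein genes were higher too, with 94 and 358 tags in Unigene32751_All. Of 5 xyloglucan endotransglucosylase genes, which cut and rejoin wall polymers, 4 were higher, with 27 and 268 tags in Unigene51655_All, while Unigene37073_All was lower with 116 and 14. Of 7 pectin enzymes, 5 were higher. The enzymes that attack fungal walls or callose lay on the other side, where all 5 chitinase and 1,3-beta-glucanase genes were lower in FS, with 3822 tags in sum in CS and 858 in FS. The most abundant, class I chitinase Unigene74953_All, had 464, 2577 and 616 tags in CON, CS and FS.

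Among signalling genes, the shares higher in FS were set beside the 62.2% of all genes whose hit names a protein. Of 10 receptor-like kinases, which sense signals at the cell surface, 8 were higher (median 1.80), from 167 to 452 tags in the FERONIA hit Unigene21774_All. Of 11 calcium-binding and calmodulin-related genes, 8 were higher (median 1.86), or 6 with the DESeq2 size factors, and their tags summed to 1807 in CS and 3761 in FS. The calmodulin binding protein gene Unigene35111_All had 54 tags in CS and 587 in FS (log2 3.45, interval 3.05 to 3.88), and the extracellular calcium sensing receptor Unigene32476_All, a thylakoid protein in Arabidopsis, had 142 and 972. The kinases CIPK26, Unigene22055_All (414 and 137), and CaMK1, Unigene21642_All (232 and 86), were lower. The paper reports calmodulin-related genes as inhibited in freeze stress. It lists such a gene as lower in freeze than in cold stress, by more than any of the calcium and calmodulin genes counted here. The count leaves out genes whose hit lacks the keywords. Of 4 protein phosphatases 2C, which restrain abscisic acid signalling among other pathways, 3 were higher, but the most abundant, Unigene50859_All, was lower, with 1015 tags in CS and 388 in FS. Of 2 MAP kinase cascade genes, Unigene33184_All was lower, with 102, 690 and 238 tags in CON, CS and FS, and Unigene3270_All was higher, with no tag in CS and 16 in FS.

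Auxin genes were higher in 9 of 14 cases (median 1.44), a share near the 62.2% of all genes whose hit names a protein. The auxin influx carrier Unigene24737_All had 47 tags in CS and 343 in FS (log2 2.88, interval 2.44 to 3.35), though its hit has an E-value of 3.6e-07. The GH3.6 gene Unigene44031_All, whose enzyme joins auxin to amino acids, fell from 212 to 55 tags and had 27 in CON. With hits of an E-value of at most 1e-20 alone, 4 of 9 auxin genes were higher and the median was -1.23.

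Antioxidant and redox genes had 11 members higher and 8 lower among 19 (median 1.25). The share higher is near the 62.2% of all genes whose hit names a protein. The glutathione S-transferase gene Unigene21480_All, a detoxifying enzyme, had 214 tags in CS and 36 in FS (log2 -2.56, interval -3.11 to -2.04), and the largest rise with at least 10 tags was that of the thioredoxin gene Unigene932_All, from 17 to 55. Grouped after values were seen, all 3 glutathione S-transferases and both respiratory burst oxidases, which make superoxide at the plasma membrane, were lower, and 4 of 5 peroxidases of the secretory class were higher. Of these, peroxidase Unigene40588_All had 880 tags in CS and 2337 in FS. Disease resistance genes were higher in 3 of 8 cases (median -1.21). The PR-6 type inhibitor Unigene26763_All had 99 and 14 tags, and the NBS gene Unigene24638_All 21 and 105.

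Lipid genes were evenly divided, 10 higher and 9 lower of 19. Both microsomal omega-3 fatty acid desaturase hits, whose enzymes make linolenic acid for membrane lipids, were higher in FS, a pair singled out after values were seen: Unigene36122_All with 19 and 105 tags and Unigene16726_All with 4 and 24. Both oleosin genes, for coat proteins of oil bodies, were lower, Unigene10266_All with 660 and 231 tags. Transporters were divided likewise, 38 higher and 36 lower of 74. The amino acid transporter Unigene28128_All had 424 tags in CS and 59 in FS (log2 -2.83, interval -3.25 to -2.44), and the mitochondrial oxoglutarate/malate carrier Unigene19104_All had 12 and 73. After values were seen, all 4 genes named as amino acid transporters and 4 of 5 sulfate transporters were found lower. The largest of the latter was Unigene2330_All, with 1646 tags in CS and 276 in FS.

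Ubiquitin and proteasome genes had 17 members higher and 18 lower of 35 (median -1.0), from 65 to 12 tags in the F-box gene Unigene44107_All and from 14 to 78 in the F-box/LRR gene Unigene58103_All. All 5 listed cytosolic ribosomal protein genes were higher in FS, between 1.20 and 2.13 on the log2 scale, and their tags summed to 1604 in CS and 3901 in FS. Of all genes whose hit names a protein, 62.2% were higher. The paper reports ribosomal protein genes as raised under cold stress but inhibited under freeze stress. Its tag values for ribosomal protein P0 in freeze stress against control include both a fall and a rise. Those values are set against control, and the ones here compare FS with CS. A gene whose hit lacks the keywords is not among the 5. Of 16 histone and chromatin genes, 13 were higher (median 1.77). Histone H3.2 Unigene29904_All had 322, 32 and 180 tags in CON, CS and FS, and the SUVH histone methyltransferase Unigene43773_All went the other way with 53 and 16. Of 18 cytochrome P450 and glycosyltransferase genes, 14 were higher (median 1.78). The P450 gene Unigene35670_All had 108, 231 and 1607 tags in CON, CS and FS (log2 2.81, interval 2.61 to 3.02), and the glucosyltransferase Unigene44605_All had 6, 88 and 10.

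The smallest lists are given in full where they bear on the leaf. All 3 listed clock genes were higher in FS, pseudo-response regulator 9 Unigene425_All with 411 and 997 tags, late elongated hypocotyl Unigene32226_All with 93 and 250, and pseudo-response regulator 5 Unigene51540_All with 26 and 83. The time of day of each harvest is not given in the sources used here, and its part in these values was not tested. Of 5 seed and pollen genes, 4 were lower. The largest by count was the Ory s 1 hit Unigene61801_All given with the wall genes, which had 66 tags in CON. Profilin Unigene23127_All had 123 and 27 tags, and the basic 7S globulin gene Unigene22783_All 74 and 260. Of 4 genes for polyamine, cysteine and asparagine, 3 were higher, with 523 and 1753 tags in the cysteine synthase Unigene13029_All. Asparagine synthetase Unigene43450_All was lower with 343 and 103 tags. The paper lists a serine acetyltransferase gene as lower in freeze than in cold stress, by more than any member of this list. Genes whose hit lacks the keywords are not counted here. Of 3 mobile element genes, 2 were lower, with 220 and 76 tags in Unigene80561_All, and Unigene25665_All went from 10 to 39.

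A CON count was read for 2759 of the 3998 genes, those that are listed in another comparison of the series, which means that they also differed from CON in CS or in FS. The values of CON are set beside CS and FS as a description, since all comparisons share libraries. Among the 1442 of these genes that were higher in FS than in CS, CON lay below both in 415, above both in 314 and between them or level with either in 713. Among the 1317 lower in FS, CON lay below both in 465, above both in 320 and between in 532. The genes lower in FS had median levels of 8.13, 14.5 and 4.95 TPM in CON, CS and FS, and CON was nearer to FS in 792 of them. The genes higher in FS had medians of 5.27, 2.91 and 9.91 TPM, and CON was nearer to CS in 873.

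**Figure D3:**
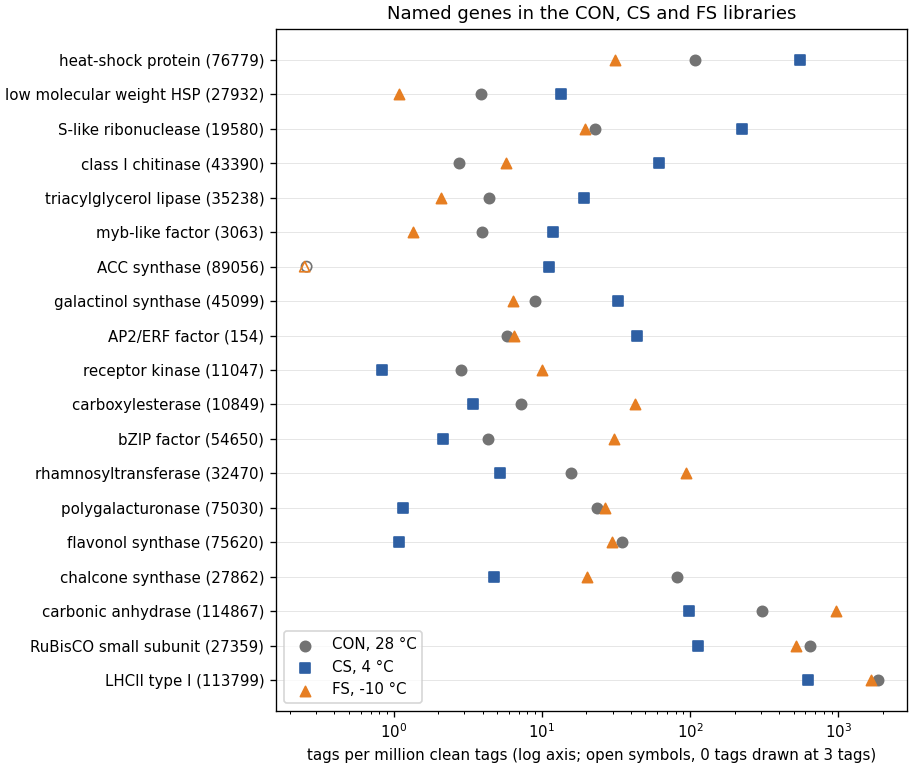
TPM levels (x axis, log) of 19 named genes in CON (circles), CS (squares) and FS (triangles), with 1 library each and open symbols for 0 tags drawn at 3 tags. The upper 9 genes are highest in CS. In the lower 10 genes CS is the lowest of the 3 libraries, and FS is above CON in the receptor kinase, carboxylesterase, bZIP, rhamnosyltransferase, polygalacturonase and carbonic anhydrase genes.

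The listed tags were more evenly divided than the genes. Of 16450, 8691 were higher in FS, which is 52.8%, and 7759 lower. The share differed with what the tag matched. Of 8135 tags that matched no gene 57.7% were higher in FS. These include the most abundant FS tag and the tags that resemble it, 158 in all, each higher in FS. Without them, 52.4% of all listed tags were higher. Of 4285 tags that matched 1 gene in the sense direction 49.1% were higher, and of 3828 in the antisense direction 46.5%. All tags come from 1 library per condition, so that these shares are a description and their differences were not tested. A further 202 matched several genes. Tags with no copy in CS or none in FS numbered 1961, of which 1203 were missing in CS and 758 in FS, and 1367 of them matched no gene. Of the 1961, 141 differed at 1 base from a listed tag at least 20 times as abundant.

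**Figure D4:**
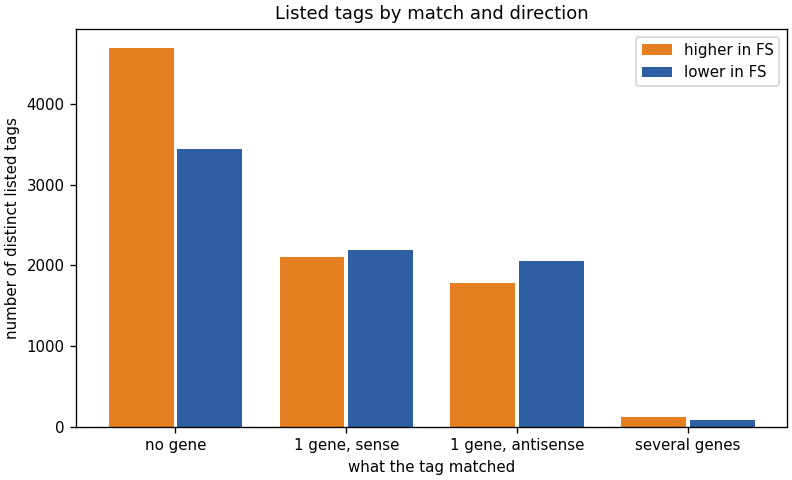
Bars give the number of distinct listed tags (y axis) higher and lower in FS, by what the tag matched (x axis). Among tags that matched no gene 4692 were higher and 3443 lower, and among tags that matched 1 gene the bars are nearly level in the sense direction (2102 and 2183) and lean to lower in the antisense direction (1779 and 2049).

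The direction of a gene rested mostly on 1 tag. At least 1 sense tag of its own was listed for 3163 of the 3998 genes, and for 2925 of these it was exactly 1. The most abundant such tag held a median of 97.0% of the gene's count, so that agreement with the gene is largely built in, and all listed sense tags lay on the side of their gene in 3140 genes. In the 238 genes with at least 2 sense tags the share was 90.3% (215 genes). The RuBisCO gene Unigene27359_All shows how tags of a gene can differ. Its tag nearest the 3′ end had 524 copies in CS and 4316 in FS, a log2 value of 3.05 against 2.21 for the whole gene. For the bZIP gene Unigene54650_All the values were 4.85 and 3.82, with 9 and 258 copies of the tag. On the strand opposite to listed genes, 652 antisense tags were listed, of which 538 moved with the gene and 114 against it.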

How the data were processed

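Leaf RNA of 3 conditions, with 1 DeepSAGE library each, was sequenced by the authors. They discarded adaptors, poor reads, tags of another length and tags seen fewer than 2 times, and clean tags were mapped to reference genes with at most 1 mismatch. The submitters' processing notes name Bowtie 0.12.3. The authors' counts give clean tags for each gene, without tags of several genes, or for each distinct tag. As deposited, TPM values are those counts scaled to 1000000 clean tags, with 0 tags written as 0.01. Columns with the authors' log2 ratio, P-value and FDR, which chose the listed rows, were not used.

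From the deposited counts, library totals were recovered as the midpoint of the range of totals, under 2 tags wide, that gives every deposited TPM value. Log2 differences, exact 95% intervals and counts by direction were computed from these (Python 3.11.15, pandas 2.3.3, scipy 1.17.1). The code was checked on simulated counts that carry counting error alone, so the check covers no other error of these libraries. With 1 library per condition nothing was tested between conditions. Genes whose hit names a protein were named by rule: the 6 largest rises and falls by ratio with 10 or more tags in both libraries, the 5 largest each way by TPM, the 3 with most tags among those at 0 in the other library, the largest rise and fall of each keyword list, and members of lists with up to 12. A gene outside this rule is marked in the text as named with its values known, and the genes whose tags are printed were chosen in that way. The members and the keyword lists were chosen with earlier results of these data known. Alternatives were TMM factors (edgeR 4.0.16), DESeq2 1.42.0 size factors, a minimum of 30 tags, a limit of 1 tag, genes at 0 left out and hits of an E-value of at most 1e-20. Totals and tags without the most abundant FS tag and its relatives were added after seeing the data. Gene names come from other species, and genome positions were not used here.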

Additional observations from a re-analysis of the deposited data

Results flagged for a closer look

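The most abundant listed tag of the FS library matched no gene and lies outside the gene comparison. It had 92808 copies in FS, 2055 in CS and 2344 in CON, a log2 value of 5.51 for FS over CS (interval 5.45 to 5.57). It drew attention because its level in FS was far above that in the control library. A total of 158 distinct listed tags, itself included, share its first 12 bases, and all 158 matched no gene and were higher in FS. Of these, 131 had no copy in CS. Together they held 103623 tags in FS and 2338 in CS. The bases of this tag resemble a sequencing adaptor, by general knowledge and not by any file used here. Whether these copies are leaf transcripts was not tested.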

How the results depend on the processing

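No paired analysis was possible because each condition had 1 library, and no replicate could be left out. The share of listed genes higher in FS was 55.3%, stayed between 54.0% and 55.3% with TMM factors, with at least 30 tags or without genes at 0, and was 51.3% with DESeq2 size factors. The same factors took the genes at least 4-fold higher from 876 to 180 and those at least 4-fold lower from 485 to 1788, as they centre on the median of a list that the authors had filtered. Tags matched in the sense direction, those that match several genes included, were higher in FS in 49.2%, against 52.8% of all listed tags. Sense tags lay on the side of their gene in 99.3% of genes, and in 90.3% of those with at least 2. Medians changed sign, with best hits of at most 1e-20, to -1.0 for NAC, 1.20 for MYB, 1.03 for ubiquitin and -1.23 for auxin genes. With at least 30 tags they became -1.01 for lipid genes and -1.03 for transporters, and with DESeq2 size factors -0.072 and -0.047. The causes were not tested. Counting error is the only error covered here: a count of 3 tags is 0.250 TPM in CS, and genes below that cannot be told from 0.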

Other observations

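Gene Ontology terms given in the gene table describe parts of the cell that the keyword lists do not. They stand here as counts, for terms with at least 20 listed genes, beside the 64.3% of the 1357 genes with a component term that were higher in FS. Genes of the plastid stroma were higher in FS in 61 of 69 cases (median log2 1.55), those of the chloroplast thylakoid in 54 of 68 (1.40) and those of the plastid envelope in 51 of 64 (1.38). Genes of the extracellular region were higher in 41 of 47 cases, those of the cell wall in 21 of 25 and those of ribonucleoprotein complexes in 18 of 20. The terms cytoplasmic part, with 19 of 33, and membrane, with 86 of 144, were at the other end.

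Among process terms, 63.9% of the 1327 genes with a term were higher in FS. The term gene expression had 33 of 40 genes higher (median log2 1.5) and response to metal ion 29 of 40. Response to stress was evenly divided, 37 and 37 of 74 genes, and response to stimulus was the only term of this size with most genes lower in FS, 16 of 24 (median -1.25). Genes share terms, so that these counts are not independent of each other or of the lists above.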
